A study of Mus musculus with 40 samples.

Results

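TGF-β is secreted in an inactive, latent form, and the transcripts of 10 genes that make, tether, store or activate it were followed in CT26 tumors of 40 mice treated with mAbs against GARP:TGF-β1, TGF-β or PD-1. The 10 genes were chosen by name from the 54087 genes of the count table. They are the ligands Tgfb1, Tgfb2 and Tgfb3, the tethering proteins Lrrc32 (which encodes GARP) and Nrros, the integrin subunits Itgb8, Itgb6 and Itgav, and the latent TGF-β binding proteins Ltbp1 and Ltbp3. All 10 were in the table, and 9 were among the 14760 genes that passed a filter on low counts. Itgb6 did not pass.

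The mature TGF-β dimer stays bound to its own propeptide after secretion. Latent TGF-β binding proteins anchor this complex in the matrix, while GARP holds it on Tregs, platelets and endothelial cells and NRROS holds it on macrophages and microglia. Integrins αVβ6 and αVβ8 bind the propeptide and activate the cytokine.

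CT26 is a single colon carcinoma line of BALB/c mice, and every mouse received 1000000 CT26 cells under the skin. Antibody was injected i.p. at day 6, day 9 and day 12, and the tumors were removed at day 13. Each of 8 groups held 5 mice. Controls received motavizumab, an isotype control on mIgG2a. Anti-GARP:TGF-β1 (clone 58A2, mIgG2a) was given either as WT or as FcD, a form whose Fc does not bind Fcγ receptors. Other mice received anti-TGF-β (clone 1D11, against all isoforms) or anti-PD-1 FcS, which carries the RMP1-14 binding regions on a silenced mIgG2a Fc. The remaining 3 groups received anti-PD-1 together with one of the others and are called the WT, FcD and anti-TGF-β combinations. The labels give neither age nor sex.

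Total counts per tumor ran from 11931730 to 20680548, with a median of 14030511. Libraries 41 to 60 carried Y-linked transcripts (Ddx3y at 6.86 to 33.4 CPM) and libraries 61 to 80 carried Xist (62.7 to 791 CPM), with 20 mice in each set and 2 or 3 mice of each set in every group. Some differences are therefore also given within each set. In 80 pairs of mice of the same group the counts differed by more than sampling noise (lowest chi-square per degree of freedom 5.85), so each mouse counted as 1 sample, and p-values measure the spread between mice.

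On a scale per length (FPKM, fragments per kilobase of exon per 1000000 reads), the median levels over 40 mice were 22.8 for Ltbp3, 20.4 for Ltbp1, 18.3 for Tgfb1, 16.4 for Nrros, 12.0 for Itgav and 8.92 for Tgfb3. Far lower lay Lrrc32 at 0.986, Tgfb2 at 0.157, Itgb8 at 0.136 and Itgb6 at 0.00891 FPKM. Neighbours at the top of this order were often exchanged between mice. Ltbp1 exceeded Tgfb1 in 27 of 40 mice and Tgfb1 exceeded Nrros in 26, whereas Ltbp3 exceeded Ltbp1 in 38. The range of Lrrc32 overlapped neither that of Tgfb3 above it nor that of Tgfb2 below it. Tgfb2 exceeded Itgb8 in 25 of 40 mice, so these were not clearly ordered.

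**Figure D1:**
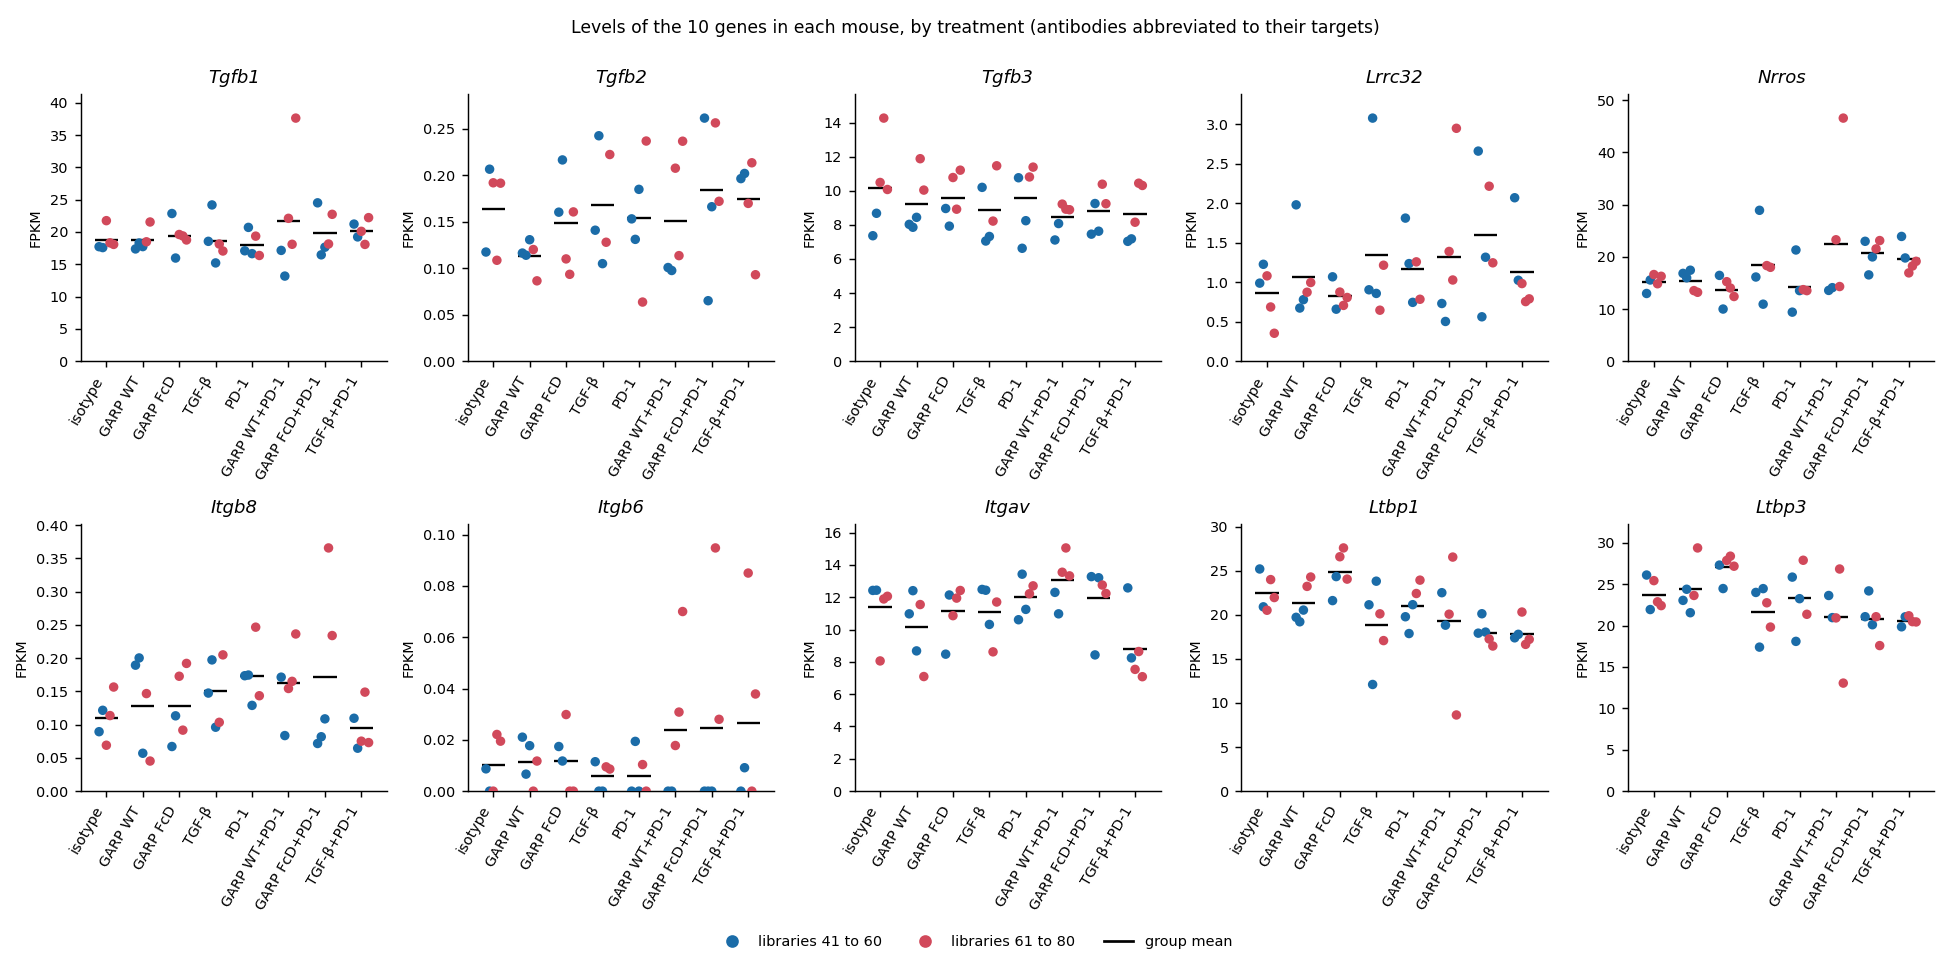
FPKM of each gene (vertical axes, linear and starting at 0) in each mouse, by treatment; points are mice, coloured by library set, and horizontal bars are group means of 5 mice. The highest Tgfb1 (37.6) and Nrros (46.5) levels belong to the same mouse of the WT combination, and Itgb6 lies near 0 in most mice.

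Tgfb1, which encodes the isoform in the complex that anti-GARP:TGF-β1 binds, made up most of the ligand message. Per length it was 67.3% ± 5.23 (SD, n = 40) of the 3 ligands, beside 32.1% ± 5.25 for Tgfb3 and 0.549% ± 0.185 for Tgfb2. The mean Tgfb1 share was 64.7% in isotype controls and 65.1% to 69.9% in the treated groups.

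Tgfb1 (chr7:25687002-25705077, plus strand, GRCm38) was at 17.7, 17.6, 21.8, 18.3 and 18.1 FPKM in isotype controls. It was at 17.2, 13.2, 22.1, 18.1 and 37.6 FPKM in the WT combination. These groups overlapped, and replicate 5 of the combination stood above all other mice. Tgfb3 (chr12:86056745-86079041, minus strand) was at 7.36, 8.68, 10.5, 14.3 and 10.1 FPKM in isotype controls, which spans the means of all treated groups (8.44 to 9.57). Of its exon bases 1348 overlap Ttll5 on the opposite strand, which had a median of 179.5 reads. Tgfb2 (chr1:186622792-186705989, minus strand) had only 5 to 22 reads per tumor.

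Lrrc32 (chr7:98489283-98502181, plus strand), whose product is part of the epitope of anti-GARP:TGF-β1, was the most variable of the 9 genes tested, with a coefficient of variation of 55.8% over mice. It was at 0.989, 1.23, 1.08, 0.687 and 0.355 FPKM in isotype controls. It was at 2.66, 0.563, 1.32, 2.22 and 1.25 FPKM in the FcD combination. There, 4 of 5 mice lay above every control and 1 lay among them. The highest level of all, 3.08 FPKM, was in replicate 2 of the anti-TGF-β group, whose other mice were at 0.646 to 1.22. In whole tumors, fewer cells of a type and less RNA per cell cannot be told apart.

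Nrros (chr16:32142785-32165594, minus strand), which encodes the anchor of latent TGF-β on myeloid cells, had a coefficient of variation of 35.7%. It was at 13.0, 15.6, 16.6, 14.8 and 16.3 FPKM in isotype controls. It was at 23.9, 19.8, 16.9, 18.2 and 19.1 FPKM in the anti-TGF-β combination, where every mouse lay above every control. It was at 22.96, 16.5, 19.98, 21.5 and 23.1 FPKM in the FcD combination, where 4 of 5 mice did. In the WT combination it was at 13.6, 14.1, 23.3, 14.3 and 46.5 FPKM, and 3 of 5 mice lay below the highest control.

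The integrin chains were unequal in level. Itgav (chr2:83724397-83806916, plus strand), the αV chain shared by several integrins, was at 7.08 to 15.05 FPKM over all mice, and 3698 of its exon bases overlap the transcript Gm13684 on the opposite strand. Itgb8 (chr12:119158022-119238802, minus strand) had 6 to 60 reads per tumor. Itgb6 (chr2:60598292-60722643, minus strand), the epithelial β6 chain, had 0 reads in 17 of 40 mice, where 3 counts, the limit that a count of 0 allows, correspond to between 0.154 and 0.247 CPM in those mice. It had 1 to 3 reads in 19 mice and more in 4.

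Those 4 mice were replicate 4 of the FcD combination (10 Itgb6 reads), replicate 5 of the WT combination (8) and replicates 3 and 5 of the anti-TGF-β combination (8 and 4). They also had the 4 highest sums of 6 epithelial markers (Epcam, Cdh1 and 4 keratins) among the 40, at 542, 249.7, 98.6 and 72.8 CPM in the same order. All 4 belonged to libraries 61 to 80, where the mean Itgb6 level was 0.0238 FPKM, beside 0.00616 FPKM in libraries 41 to 60. The part of epithelial cells in these reads was not tested.

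Ltbp1 (chr17:75005568-75392512, plus strand) and Ltbp3 (chr19:5740904-5758532, plus strand) encode matrix anchors of latent TGF-β. Ltbp1 was at 25.2, 20.9, 20.5, 23.98 and 21.9 FPKM in isotype controls. It was at 17.4, 17.8, 20.3, 16.6 and 17.2 FPKM in the anti-TGF-β combination and at 17.9, 20.1, 18.03, 17.3 and 16.5 in the FcD combination. All 10 of these mice lay below every control. Ltbp3 was at 26.1, 21.9, 25.4, 22.9 and 22.4 FPKM in isotype controls and at 19.8, 21.1, 21.2, 20.5 and 20.4 in the anti-TGF-β combination, again without overlap. With anti-GARP:TGF-β1 FcD alone, 4 of 5 mice lay above every control for Ltbp3 (mean 27.0 FPKM, beside 23.7 in controls). In the WT combination, 1 mouse lay above and 3 lay below every control, for Ltbp3 as for Ltbp1.

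Counted over the 9 genes tested, the groups were apart from isotype controls for Nrros, Ltbp1 and Ltbp3 in the anti-TGF-β combination, beside 3.03% of all genes, and for Ltbp1 in the FcD combination, beside 3.25%. None were apart in the WT combination (2.97% of all genes) or with anti-GARP:TGF-β1 WT (0.19%), its FcD form (0.196%), anti-TGF-β (0.183%) or anti-PD-1 (0.271%) alone. Against anti-PD-1 alone, none were apart in the WT (0.664%), FcD (0.996%) or anti-TGF-β (1.88%) combination. These comparisons share their control mice.

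By edgeR's quasi-likelihood test with Benjamini-Hochberg adjustment over all 14760 genes, none of the 9 genes passed an adjusted p of 0.05 in any of 15 contrasts. Of the 135 results 13 had an unadjusted p under 0.05. DESeq2 called 0 of the 9 as well, although it called more of all genes, with 888 with against without anti-PD-1 (87 by edgeR), 1297 across the 8 groups (4 by edgeR) and 137 for the anti-TGF-β combination against isotype control (0 by edgeR). The lowest adjusted p was 0.0970, for Ltbp3 with against without anti-PD-1. By edgeR, the share of all genes called was 0% in each of the 7 contrasts with isotype control, 0.00678% for the anti-TGF-β combination against anti-PD-1 and for anti-TGF-β averaged over anti-PD-1, and 0.589% with against without anti-PD-1. Across the 8 groups together it was 0.0271%, and the smallest adjusted p of the 9 genes was 0.179, for Ltbp3, by the same edgeR test.

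The first question was whether blocking the GARP-bound complex altered the transcripts of the complex itself. With anti-GARP:TGF-β1 WT alone, Lrrc32 differed from isotype controls by 0.28 on the log2 scale (95% interval -0.61 to 1.18), and the interval for Tgfb1 was -0.33 to 0.33. With FcD alone, Lrrc32 differed by -0.07 (-0.98 to 0.83) and Tgfb1 by 0.05 (-0.28 to 0.38). Both Lrrc32 values changed sign with 1 mouse left out: the first was -0.07 without replicate 1 of the WT group, and the second ran from -0.27 (without replicate 5 of the isotype controls) to 0.08 (without their replicate 2). None of the 9 had an unadjusted p below 0.05 by edgeR in either comparison, beside 0.969% and 0.474% of all genes.

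The FcD and WT forms share their binding regions and differ in the Fc. Averaged over the absence and presence of anti-PD-1, FcD differed from WT by -0.04 (-0.66 to 0.59) for Lrrc32, -0.14 (-0.49 to 0.21) for Nrros and 0.33 (-0.17 to 0.82) for Tgfb2, the largest of the 9 differences. Without replicate 5 of the WT combination the first of these was 0.23 and the second 0.09, so that both changed sign. None had an unadjusted p under 0.05, beside 0.921% of all genes. Against the groups without it, neither form gave one among the 9, beside 5.77% of all genes for WT and 2.47% for FcD.

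Anti-TGF-β alone and anti-PD-1 alone likewise gave no unadjusted p under 0.05 among the 9 genes, beside 2.32% and 0.955% of all genes. Lrrc32 differed by 0.62 (-0.27 to 1.52) with anti-TGF-β, which was 0.06 without replicate 2 of that group, and Itgb8 by 0.65 (-0.17 to 1.48) with anti-PD-1.

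**Figure D2:**
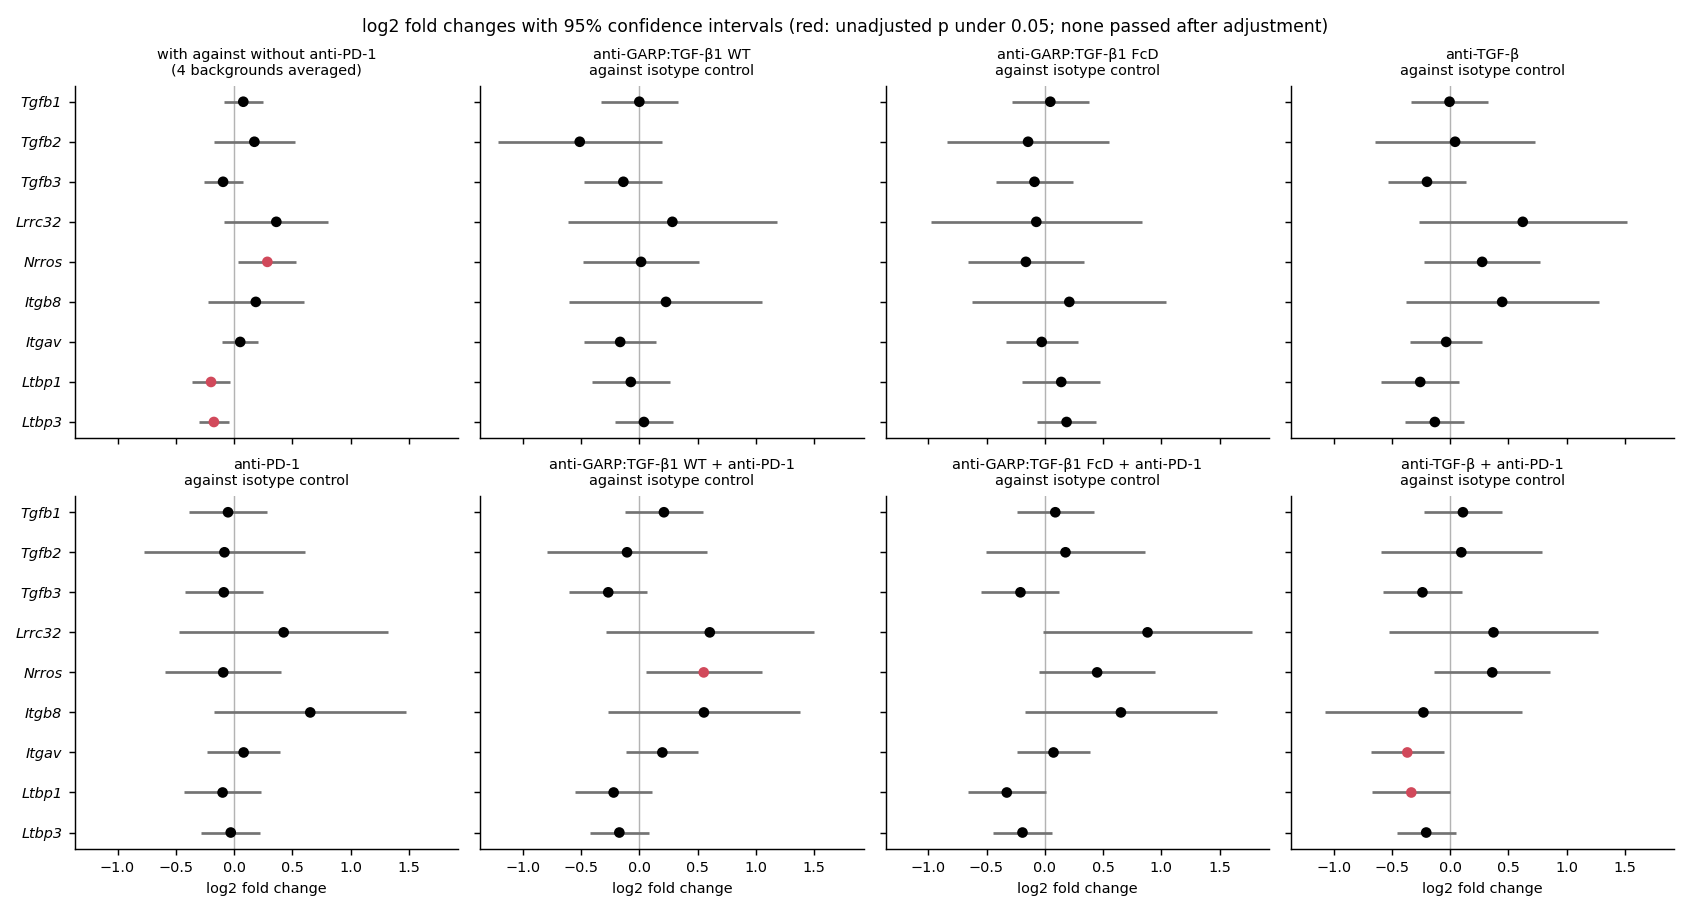
log2 fold changes of the 9 genes (horizontal axes) with 95% intervals from edgeR, for anti-PD-1 averaged over 4 backgrounds (20 against 20 mice) and for each treatment against isotype control (5 against 5). Red points have an unadjusted p under 0.05: Nrros (0.29), Ltbp1 (-0.20) and Ltbp3 (-0.17) in the first panel, Nrros (0.55) in the WT combination, and Itgav (-0.37) and Ltbp1 (-0.33) in the anti-TGF-β combination; none passed after adjustment.

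With against without anti-PD-1, averaged over 4 backgrounds, Nrros differed by 0.29 ± 0.123 (log2, SE; edgeR adjusted p = 0.152), Ltbp1 by -0.20 ± 0.082 (adjusted p = 0.140) and Ltbp3 by -0.17 ± 0.0621 (adjusted p = 0.0970). These 3 of 9 genes had an unadjusted p under 0.05, beside 23.4% of all genes. The sign was the same in both library sets, with mean log2 CPM differences of 0.16 and 0.34 for Nrros, -0.13 and -0.28 for Ltbp1, and -0.12 and -0.24 for Ltbp3 in libraries 41 to 60 and 61 to 80. The average did not hold for anti-PD-1 alone against isotype controls in the case of Nrros, which differed by -0.09 (-0.59 to 0.41). There, Ltbp1 differed by -0.10 and Ltbp3 by -0.03. Averaged over the 4 backgrounds, Lrrc32 differed by 0.36 (-0.08 to 0.81), by 0.02 in the first set and 0.58 in the second. It differed by 0.23 without replicate 5 of the WT combination.

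With against without anti-PD-1, Nrros, Ltbp1 and Ltbp3 all passed when replicate 2 of the anti-TGF-β group was left out. That mouse had 28.9 FPKM of Nrros and 12.1 of Ltbp1. The edgeR adjusted p was then 0.0451 for Nrros (0.34), 0.0418 for Ltbp1 (-0.23) and 0.0348 for Ltbp3 (-0.19), while the number of all genes called went from 87 to 2243. Without replicate 5 of the WT combination, the Nrros difference was 0.17 instead (edgeR adjusted p = 0.343). Of the macrophage markers 6 of 8 had an unadjusted p under 0.05 in this comparison, beside 23.4% of all genes, and 0 passed after adjustment. Their summed level was 1645 to 2425 CPM in isotype controls (median 1972), 1266 to 4001 over the other groups without anti-PD-1 and, with anti-PD-1, 1205 to 3094 alone (median 1790), 1798 to 7969 in the WT combination (median 2095), 2202 to 3448 in the FcD combination (median 2924) and 2393 to 3018 in the anti-TGF-β combination (median 2777). All 4 ranges overlapped that of the controls, and the median with anti-PD-1 alone lay below the control median. Of the neutrophil markers 5 of 5 and of the epithelial markers 6 of 6 had an unadjusted p under 0.05 in the same comparison (beside 23.4% of all genes), and 0 passed after adjustment. The group medians of the neutrophil sum were 25.4 to 37.5 CPM without and 30.5 to 80.4 CPM with anti-PD-1. Those of the epithelial sum overlapped, at 10.1 to 21.7 CPM without and 13.0 to 29.5 CPM with it, while single mice of the combinations reached 98.6 to 542 CPM. The part of these cells in the Nrros difference was not tested.

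In the combinations, Nrros differed from isotype controls by 0.55 (0.05 to 1.05) with WT, 0.45 (-0.05 to 0.95) with FcD and 0.36 (-0.14 to 0.86) with anti-TGF-β (edgeR adjusted p = 0.204, 0.341 and 0.397). In the same order 1, 0 and 2 of the 9 had an unadjusted p below 0.05, beside 20.7%, 16.6% and 20.1% of all genes. The first value rested on replicate 5, without which it was 0.10, and its sign differed between library sets (mean log2 CPM differences of -0.04 in 41 to 60 and 0.65 in 61 to 80). Against anti-PD-1 alone, Nrros differed by 0.65 (0.15 to 1.14), 0.54 (0.04 to 1.04) and 0.45 (-0.04 to 0.95), and the first was 0.19 without that mouse and -0.01 and 0.87 within library sets (edgeR adjusted p = 0.232, 0.458 and 0.335 with it). Here 1, 1 and 2 of the 9 had an unadjusted p below 0.05, beside 17.2%, 10.7% and 17.1% of all genes. Lrrc32 differed from isotype controls by 0.88 (-0.01 to 1.78) in the FcD combination (edgeR adjusted p = 0.306), by 0.19 in libraries 41 to 60 and 1.33 in 61 to 80. In the same group the median sums of endothelial, Treg, neutrophil and adipocyte markers were 152.8, 20.5, 80.4 and 45.8 CPM. They were 109.3, 14.3, 25.4 and 2.43 CPM in isotype controls, with overlapping ranges and 0 genes called. The part of these cells in the Lrrc32 difference was not tested.

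Itgav had its lowest group mean in the anti-TGF-β combination, at 8.82 ± 2.19 FPKM (SD, n = 5). The mice were at 12.6, 8.24, 7.53, 8.64 and 7.08 FPKM, beside 10.6, 13.4, 11.2, 12.2 and 12.7 with anti-PD-1 alone and 12.4, 12.4, 8.06, 11.9 and 12.1 in isotype controls. Of the 5 mice 4 lay below every mouse given anti-PD-1 alone, and replicate 1 lay among them. The log2 difference was -0.45 ± 0.154 against anti-PD-1 alone and -0.37 ± 0.153 against isotype controls (edgeR adjusted p = 0.183 and 0.193).

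Without replicate 1 of that group, both Itgav differences passed, at -0.61 (adjusted p = 0.0160) and -0.52 (adjusted p = 0.0235, both edgeR), together with 1734 and 2006 of all genes in place of 1 and 0. Within library sets the difference from anti-PD-1 alone was -0.20 and -0.69. Itgb8, which pairs with Itgav, was at 0.110, 0.0646, 0.0752, 0.149 and 0.0731 FPKM in this combination and at 0.174, 0.175, 0.129, 0.247 and 0.143 with anti-PD-1 alone. It differed by -0.88 (-1.72 to -0.05; edgeR adjusted p = 0.275), on 11 to 20 reads against 20 to 37. Of the skeletal muscle markers 4 of 4 had an unadjusted p under 0.05 in the same contrast, beside 17.1% of all genes, and 0 passed after adjustment. Their sum was 2.36 to 159 CPM (median 2.51) with anti-PD-1 alone, where 1 mouse stood apart, and 2.08 to 3.05 CPM (median 2.19) in the combination, and their part in these differences was not tested.

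Averaged over anti-PD-1, anti-TGF-β gave log2 differences of 0.36 for Nrros, -0.24 for Itgav and -0.25 for Ltbp1 (edgeR adjusted p = 0.341, 0.326 and 0.338), 3 of 9 genes with an unadjusted p under 0.05 beside 14.1% of all genes. The effect of anti-PD-1 differed between the 4 backgrounds for none of the 9 genes after adjustment; Itgav had an unadjusted p of 0.0247 (edgeR adjusted p = 0.349), as 14.2% of all genes had one under 0.05. Across the 8 groups together, Nrros, Itgav and Ltbp3 had one, beside 24.7% of all genes.

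A pair of further gene lists was read in the same tests. Of 25 genes of storage and activation, such as fibrillins, other binding proteins, Thbs1 and matrix proteases, 0 passed in any comparison by edgeR, and 9 had an unadjusted p under 0.05 with against without anti-PD-1 (median log2 difference 0.07, beside -0.0040 for all genes), beside 23.4% of all genes. Of 19 receptors, Smads and target genes 0 passed and 5 had one there (median 0.04). In the anti-TGF-β combination against anti-PD-1 alone, 5 of 25 and 7 of 19 had one, with medians of -0.16 and -0.19, beside 17.1% of all genes.

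Deviations of log2 CPM from the group mean were compared over 40 mice between the 9 genes and 11 marker lists, and 29 of 99 pairs had an adjusted p under 0.05 by permutation within groups. These were 29.3% of the pairs, beside 21.3% of the pairs of all genes with the same lists at the same unadjusted p (at most 0.014), a share that reached 46.4% for macrophage markers. Passing was thus common among all genes. The points share their library, and CPM values sum to a fixed total. Nrros and the macrophage markers had the closest relation, with r = 0.97 (rho = 0.93, permutation p = 1e-05, the smallest these permutations can give, adjusted p = 0.000141). It was 0.94 without the 2 mice farthest from the median marker level and 0.97 in each library set, and 0.0407% of all genes had an r as far from 0. Nrros also passed with T cell (0.77), endothelial (0.64), Treg (0.52) and keratinocyte (0.46) markers. Without the 2 farthest mice, r was 0.72, 0.28, 0.49 and 0.33 in the same order. By rank, the keratinocyte pair did not pass (rho = 0.35, adjusted permutation p = 0.117).

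**Figure D3:**
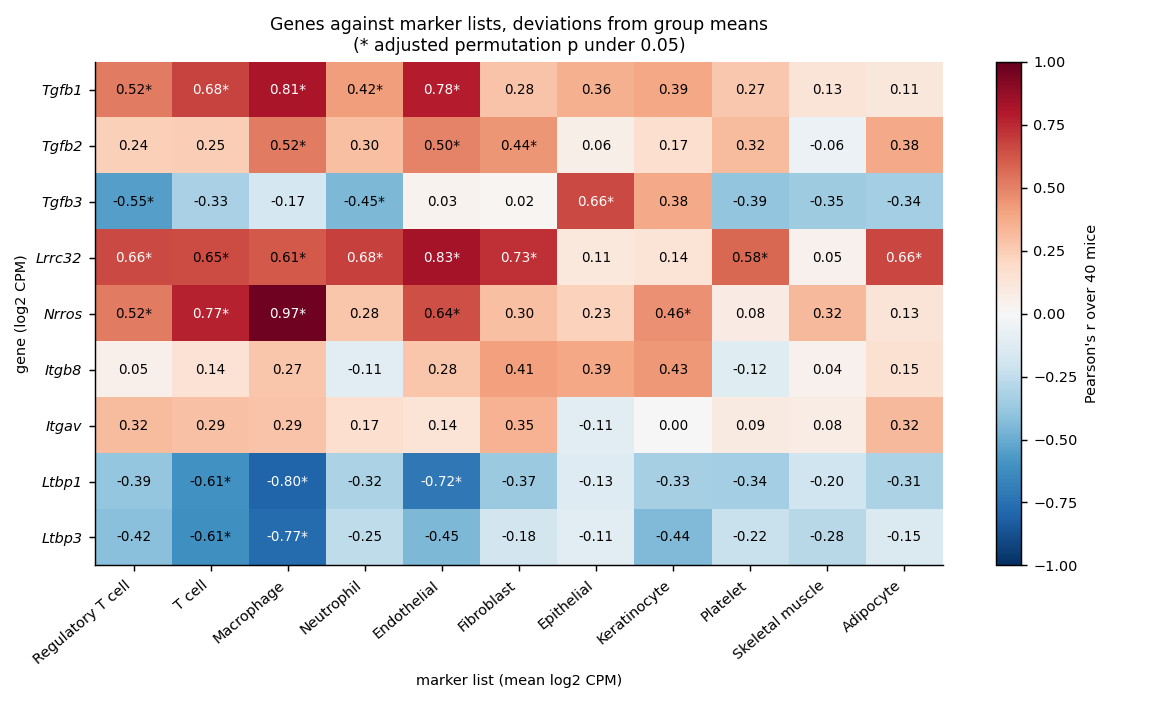
Pearson's r (colour and number) between each gene (rows) and each marker list (columns) over 40 mice, as deviations from group means of log2 CPM; asterisks mark an adjusted permutation p under 0.05. Lrrc32 passed with 8 of 11 lists and Itgb8 and Itgav with 0, and the value for Tgfb3 and epithelial markers spans library sets within which r was 0.41 and -0.01.

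Lrrc32 had its highest r with endothelial markers (r = 0.83, rho = 0.77, adjusted permutation p = 0.000141), which was 0.74 without the 2 farthest mice and 0.92 and 0.77 within library sets, and 0.834% of all genes had an r as far from 0. With Treg markers it had r = 0.66 (rho = 0.58, adjusted permutation p = 0.00081), which was 0.67 without the 2 farthest mice but 0.73 and 0.24 within library sets, and 4.37% of all genes had an r as far from 0. The difference between these relations was not tested. Fibroblast (0.73), neutrophil (0.68), adipocyte (0.66), T cell (0.65), macrophage (0.61) and platelet (0.58) markers also passed. Without the 2 farthest mice, r was 0.65, 0.56, 0.58, 0.56, 0.36 and 0.49 in the same order. Foxp3, which defines Tregs, had 3 to 50 reads per tumor, and the 7 Treg markers summed to 5.78 to 40.4 CPM, beside 77.9 to 511 CPM for the 7 endothelial markers. Of 6 platelet markers 3 passed the filter on low counts, and Gp1bb had 0 reads in every mouse.

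Tgfb1 varied with macrophage markers (r = 0.81, rho = 0.60, adjusted permutation p = 0.000141; 0.60 without the 2 farthest mice) and endothelial markers (r = 0.78, rho = 0.64, adjusted permutation p = 0.00081; 0.57). It also passed with T cell (0.68), Treg (0.52) and neutrophil (0.42) markers, and r was 0.56, 0.51 and 0.26 without the 2 farthest mice. By rank, the Treg and neutrophil pairs did not pass (rho = 0.33 and 0.35, adjusted permutation p = 0.142 and 0.108). Ltbp1 and Ltbp3 varied against macrophage markers. For Ltbp1, r was -0.80 (rho = -0.63, adjusted permutation p = 0.00178), -0.48 without the 2 farthest mice, and -0.76 and -0.94 within library sets. For Ltbp3, r was -0.77 (rho = -0.58, adjusted permutation p = 0.00134), then -0.54, -0.77 and -0.86. Both also passed with T cell markers (-0.61 each, then -0.46 for Ltbp1 and -0.49 for Ltbp3 without the 2 farthest mice). Ltbp1 passed with endothelial markers too (-0.72, then -0.32). Replicate 5 of the WT combination bore on all of these: its macrophage markers summed to 7969 CPM, beside a median of 2088 over all mice, and it had the lowest Ltbp1 (8.63 FPKM) and Ltbp3 (13.0) levels. Of all genes, 5.44%, 6.22% and 8.58% had an r with macrophage markers as far from 0 as Tgfb1, Ltbp1 and Ltbp3. Without that mouse, r was 0.68 for Tgfb1, -0.64 for Ltbp1, -0.62 for Ltbp3 and 0.95 for Nrros, and each still passed.

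**Figure D4:**
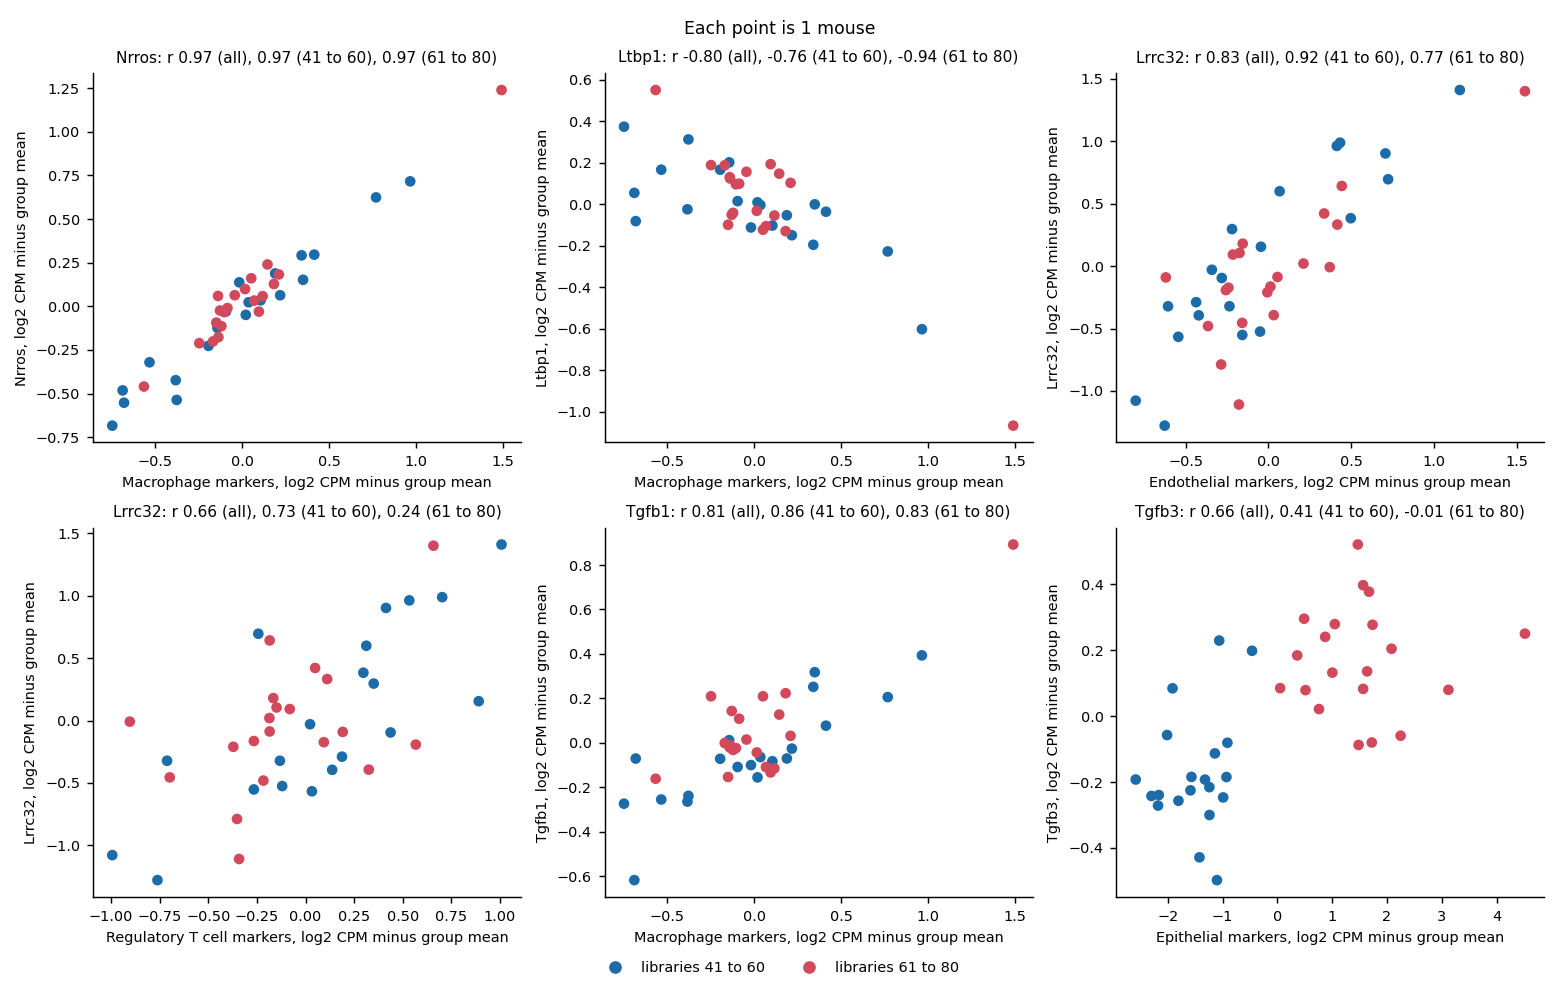
Deviation of a gene (vertical axis) against that of a marker list (horizontal axis), both log2 CPM minus the group mean, for 6 pairs; each point is 1 of 40 mice, coloured by library set, and r is given over all mice and within each set. Nrros lies along the macrophage markers in both sets (0.97 each), whereas Tgfb3 and epithelial markers form separate clouds by set.

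Tgfb2 passed with macrophage (0.52), endothelial (0.50) and fibroblast (0.44) markers, where 37.1%, 30.2% and 19.4% of all genes had an r as far from 0. By rank, the endothelial and fibroblast pairs did not pass (adjusted permutation p = 0.0602 and 0.0639). Without replicate 2 of the FcD combination, r with fibroblast markers was 0.35, and this pair passed in 31 of the 40 repeats that left out a mouse. Tgfb3 had r of -0.55 with Treg markers, which was -0.76 and -0.31 within library sets, and 15.9% of all genes had an r as far from 0.

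Among the genes themselves, Ltbp1 and Ltbp3 varied together (r = 0.83 over 40 mice), as did Tgfb1 and Nrros (0.81), and Nrros and Ltbp1 varied in opposite directions (-0.80). The 250 bases before the RefSeq start sites of these 4 genes (GRCm38.p6), which vary together or against each other, are given here, 5′ to 3′ on the strand of the gene. Capitals mark matches on either strand to the GC box GGGCGG, the PU box GAGGAA, the AP-1 motif TGANTCA or the CAGA box CAGACA, and no match overlaps one of another motif. For Ltbp1 the first of 2 start sites is shown.
Tgfb1, chr7:25686752-25687001, plus strand: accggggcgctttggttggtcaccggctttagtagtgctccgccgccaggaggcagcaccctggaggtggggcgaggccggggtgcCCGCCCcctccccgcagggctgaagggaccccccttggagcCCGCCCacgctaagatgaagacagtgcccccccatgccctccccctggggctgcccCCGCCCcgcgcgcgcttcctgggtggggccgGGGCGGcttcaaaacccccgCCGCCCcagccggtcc
Nrros, chr16:32165595-32165844, minus strand: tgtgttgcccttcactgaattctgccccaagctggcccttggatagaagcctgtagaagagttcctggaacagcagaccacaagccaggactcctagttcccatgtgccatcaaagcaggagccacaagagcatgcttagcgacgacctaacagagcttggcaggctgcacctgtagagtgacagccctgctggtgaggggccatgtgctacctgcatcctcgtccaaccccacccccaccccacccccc
Ltbp1, chr17:75005279-75005528, plus strand: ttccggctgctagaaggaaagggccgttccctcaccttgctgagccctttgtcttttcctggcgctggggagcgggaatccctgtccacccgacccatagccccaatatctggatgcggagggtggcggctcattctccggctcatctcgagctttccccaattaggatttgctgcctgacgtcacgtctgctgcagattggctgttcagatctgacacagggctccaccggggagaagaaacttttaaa
Ltbp3, chr19:5740650-5740899, plus strand: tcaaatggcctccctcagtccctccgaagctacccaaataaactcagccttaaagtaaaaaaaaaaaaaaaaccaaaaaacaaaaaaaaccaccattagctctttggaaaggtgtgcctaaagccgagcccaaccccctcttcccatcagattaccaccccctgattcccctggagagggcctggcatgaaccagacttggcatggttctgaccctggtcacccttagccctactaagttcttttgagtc

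The Tgfb1 window held 5 GC boxes and was 75.2% G or C, beside a median of 52.4% over 32851 promoters. The windows of Nrros (58.4%), Ltbp1 (56.8%) and Ltbp3 (47.2%) held no match to any of the 4 motifs. Over all promoters, 32.7% held a GC box, 23.3% a PU box, 17.1% a CAGA box and 6.75% an AP-1 motif. The second Ltbp1 start site had 1 PU box and 2 CAGA boxes. Of the 10 genes 8 had a promoter in the RefSeq table.

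The genes most like each of the 9 in deviation from group means over 40 mice were Cyth4, Myo1f and Arap1 for Nrros (r = 0.96 each), Rhog (0.92), Litaf (0.91) and Pld3 (0.91) for Tgfb1, and Epas1 (0.89), Palld (0.88) and Adam19 (0.88) for Lrrc32. For Itgav they were Bmpr2, Pdpk1 and Dmxl1 (0.97 each), and for Itgb8 Fam84b (0.81), Serinc5 (0.78) and Erbb3 (0.77). For Ltbp1 they were Epha2 (0.91), Spats2 (0.90) and Foxf1 (0.90), and for Ltbp3 Grik5 (0.88), Ltbp4 (0.88) and Inf2 (0.87). For Tgfb2 they were Mrc1 (0.71), Stab1 (0.70) and Rcan2 (0.69), and for Tgfb3 Rhbdl2 (0.79), Arhgap28 (0.78) and Creb3l2 (0.78). Ltbp4, like Ltbp3, encodes a latent TGF-β binding protein, and Mrc1 is one of the macrophage markers used here.

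One gene differed between the library sets, a comparison added after the data were seen. Tgfb3 was at 6.63 to 10.8 FPKM in libraries 41 to 60 (median 7.89, n = 20) and at 8.15 to 14.3 in libraries 61 to 80 (median 10.3, n = 20). The ranges overlapped, but the mean was higher in the second set in 8 of 8 treatment groups. With treatment in the model, the log2 difference was 0.36 ± 0.0605 (0.23 to 0.48; edgeR's quasi-likelihood test, adjusted p = 0.000269), 1 of 9 genes called beside 1.68% of all genes. Itgb8 differed by 0.41 (0.003 to 0.82) by the same edgeR test, with an unadjusted p of 0.0484 and an adjusted p of 0.395. Its mean was higher in the second set in 7 of 8 groups. The 6 epithelial markers were all higher in the second set by the same test, with a median log2 difference of 4.03, and their part in the Tgfb3 difference was not tested. Sex, as read from Xist and Y-linked transcripts, and library number cannot be told apart here.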

How the data were processed

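RNA of CT26 tumors from 40 mice was sequenced from stranded mRNA libraries. The authors deposited raw read counts per gene for all mice. Per the submitters' processing notes, STAR 2.5.3a, SAMtools 1.6, HTSeq 0.9.1 and GRCm38 were used; the strand setting of the counting is not given in the sources used here. Groups were taken from the labels, replicates were numbered in accession order, and 0 columns of values were left out. The genes and lists were chosen with earlier results of these data known.

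Counts were filtered with filterByExpr, TMM-normalized and tested with edgeR 4.0.16 (R 4.3.3; robust quasi-likelihood test, Benjamini-Hochberg adjustment over 14760 genes, threshold 0.05) in 1 model of all mice. FPKM was computed here from the counts, TMM library sizes and GENCODE M21 exon bases. Correlations used log2 CPM (prior count 2) and 100000 permutations within groups, or 20000 with a mouse left out (numpy 2.4.6, Python 3.11.15). Alternatives were DESeq2 1.42.0, its size factors, no filter, the library set as a covariate, only the 2 compared groups, and each mouse left out; for correlations also a prior count of 0.5, z-scores, group and library set means, and no group means. Within-set differences, the test between library sets and the share of all genes varying with the marker lists (10000 permutations) or holding a mouse far from its group were added after the data were seen. The tests were tried on simulated data. Named were the 10 genes, members of the 2 further lists past the threshold (none) and, for each gene tested, the 3 with the highest r. The limit for 0 reads covers counting error only.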

Additional observations from a re-analysis of the deposited data

Results flagged for a closer look

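In each group of 5 mice, the highest or lowest value was compared with the others by Dixon's ratio. Of 80 sets of values 8 held a mouse far from the other 4, in 3 genes. This was 10% of the sets, beside 11% of the 118080 sets of all tested genes, where chance gives about 1 in 20 for normally spread values. The 80 sets include those of Itgb6, which was not among the tested genes and gave none of the 8. Lrrc32 was high in replicate 1 of the group given anti-GARP:TGF-β1 WT alone (9.28 CPM, others 3.16 to 4.67), in replicate 2 of the anti-TGF-β group (14.4 CPM, others 3.03 to 5.70) and in replicate 1 of the anti-TGF-β combination (9.70 CPM, others 3.54 to 4.81). Itgav was low in replicate 3 of the isotype controls (86.6 CPM, others 128 to 134) and in replicate 2 of the FcD combination (90.6 CPM, others 131 to 143), and high in replicate 1 of the anti-TGF-β combination (135 CPM, others 76.1 to 92.8). Tgfb1 was high in replicate 3 of the isotype controls (109.7 CPM, others 88.7 to 92.4) and in replicate 5 of the group given anti-GARP:TGF-β1 WT alone (108.6 CPM, others 87.6 to 93.2).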

How the results depend on the processing

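None of the 9 genes was called in any treatment comparison with DESeq2's size factors, without the filter, with DESeq2, with the library set as a covariate or with only the 2 compared groups, and each of the 629 fold changes under these settings moved by less than 1 SE, 8 of them changing sign. With 1 mouse left out, the number called was 0 to 1 for the treatments against isotype control, 0 to 1 for the combinations against anti-PD-1 alone and 0 to 1 for the 8 groups together (Itgav without replicate 1 of the anti-TGF-β combination, edgeR adjusted p = 0.0317 in the last), 0 to 3 with against without anti-PD-1 (without replicate 2 of the anti-TGF-β group), and 0 in the other comparisons. Of 1980 fold changes so computed 5 became called, 17 that were not called moved by at least 1 SE, and 112 changed sign. Of the marker pairs 29 passed, 30 under each of 3 other settings, 47 without subtracting group means, and 22 (without replicate 2 of the anti-TGF-β group) to 36 (without replicate 1 of the anti-PD-1 group) with 1 mouse left out.

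Counts over all genes moved more. With against without anti-PD-1, 87 became 39 with DESeq2's size factors, 0 without the filter, 888 with DESeq2, 385 with the library set as a covariate and 0 to 2243 with 1 mouse left out. For the 8 groups, 4 became 9 without the filter, 1297 with DESeq2, 35 with the library set and 0 to 2288 with 1 mouse left out. Against isotype control, 0 became 14 (DESeq2), 17 (library set) and 177 (2 groups) for the FcD combination, and 137 (DESeq2), 8 (2 groups) and up to 2006 (1 mouse left out) for the anti-TGF-β combination. Against anti-PD-1 alone, 1 became 78 (DESeq2), 0 (2 groups) and 0 to 1734 (1 mouse left out) for the anti-TGF-β combination, and 0 became up to 538 for the WT combination (without replicate 2 of the anti-PD-1 group). For anti-TGF-β averaged over anti-PD-1, 1 became 0 without the filter, 59 with DESeq2, 3 with the library set and 0 to 272 with 1 mouse left out. DESeq2 called 1 gene in place of 0 for anti-GARP:TGF-β1 WT, anti-TGF-β and anti-PD-1 against isotype control, for WT averaged over anti-PD-1 and for the interaction. The cause was not tested.

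No paired analysis was possible because the labels give no replicate numbers that groups share. Depth limits Tgfb2 (5 to 22 reads per tumor), Itgb8 (6 to 60) and Itgb6 (0 to 10), whose intervals are wide or whose test was not made.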
